A study of Mus musculus with 2 samples.

Results

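The genes described here make, package, recapture and break down the monoamines and acetylcholine in the mouse cerebellum. They were the 10 genes Th, Dbh, Slc6a2, Tph2, Slc6a4, Slc18a2, Chat, Slc18a3, Slc5a7 and Ache, chosen by function and matched by Ensembl gene identifier, out of 43346 annotated genes in the expression tables. All 10 were found in both mm10 libraries, and 9 of the 10 in the mm9 gene, transcript and exon tables, where Slc18a3 was not matched. The study sequenced polyadenylated RNA longer than 200 nt from whole cerebellum of C57BL/6J mice aged 8 weeks, as strand-specific paired reads. There was 1 group of 2 libraries, for which the labels name no treatment and no genetic change. They describe pooled tissue of littermates of both sexes, under one donor record for both libraries. Nothing in the labels says that the libraries came from separate animals, so the spread between them may be technical, and no contrast between conditions and no p-value could be formed.

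As background, noradrenaline and serotonin reach the cerebellum through thin fibres whose cell bodies lie in the locus coeruleus and the raphe nuclei of the brainstem, and cholinergic fibres arrive largely from the vestibular and other brainstem nuclei. Th makes the dopamine precursor L-DOPA, Dbh turns dopamine into noradrenaline, and Tph2 is the neuronal tryptophan hydroxylase that starts serotonin synthesis. Chat makes acetylcholine. Slc18a2 and Slc18a3 load monoamines and acetylcholine, respectively, into synaptic vesicles, and Slc6a2, Slc6a4 and Slc5a7 take up noradrenaline, serotonin and choline at the nerve ending. Ache hydrolyses released acetylcholine. In bulk tissue, fewer cells of a type and less RNA per cell cannot be told apart.

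The cerebellum contained transcripts of all 10 genes at 1 TPM (transcripts scaled for length and depth) or more in both libraries, where 60.9% of protein-coding genes and 33.4% of all annotated genes reached that level. The esterase Ache stood far above the rest at 103 ± 2.14 TPM (SD, n = 2), while the other 9 lay between 1.58 ± 0.410 TPM for Slc6a2 and 8.36 ± 0.997 TPM for Slc18a3. The median over the 10 genes was 4.30 TPM, beside 4.77 TPM over 21474 protein-coding genes. Ache ranked above 94.2% of protein-coding genes and Slc6a2 above 41.1% of them. Depth was 83109117 and 84279927 expected read counts in replicates 1 and 2, and every one of the 10 genes had at least 402 counts in each library.

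**Figure D1:**
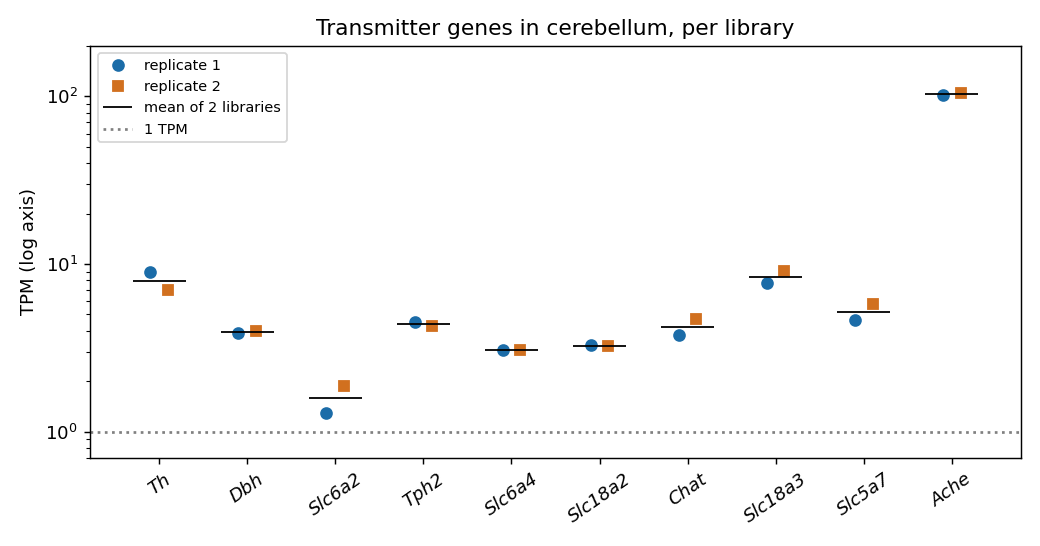
Level of each gene in TPM (log axis) in replicate 1 (circles) and replicate 2 (squares), with the mean of the 2 libraries as a line and 1 TPM dotted. All points lie above 1 TPM, and Ache, at 101.5 and 104.5 TPM, is the only gene above 10 TPM.

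Among Th, Chat, Tph2 and Dbh, the synthesis enzymes of the set described here, Th was the most abundant. Th (ENSMUSG00000000214, mm10 chr7:142892752-142931128, minus strand) was measured at 8.90 TPM in replicate 1 and 6.96 TPM in replicate 2, from 769 and 635 counts. Chat (ENSMUSG00000021919, chr14:32408203-32465989, minus strand) stood at 3.75 and 4.69 TPM, from 518 and 685 counts. The libraries thus ordered the 2 genes alike, but Th was higher in replicate 1 and Chat in replicate 2. Tph2 (ENSMUSG00000006764, chr10:115078641-115185022, minus strand) was measured at 4.50 and 4.26 TPM. Dbh (ENSMUSG00000000889, chr2:27165233-27183200, plus strand) was measured at 3.87 and 3.98 TPM. The Chat values overlapped those of Tph2 and those of Dbh, so that Chat's place among them was not separated by the spread. Th exceeded Dbh 2.30-fold in replicate 1 and 1.75-fold in replicate 2.

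Both vesicle carriers were detected, the cholinergic one at the higher level. Slc18a3 (ENSMUSG00000100241), the vesicular acetylcholine transporter, was measured at 7.65 and 9.06 TPM from 897 and 1123 counts. Slc18a2 (ENSMUSG00000025094, chr19:59260896-59296012, plus strand), the vesicular monoamine transporter, was measured at 3.30 and 3.22 TPM from 629 and 650 counts. The lowest Slc18a3 value was above both Slc18a2 values. Slc18a3 also stood above Chat, whose product it carries, 2.04-fold in replicate 1 and 1.93-fold in replicate 2, and its level overlapped that of Th.

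The 3 plasma membrane carriers followed the order choline, serotonin, noradrenaline in both libraries. Slc5a7 (ENSMUSG00000023945, chr17:54273590-54299034, minus strand), the high-affinity choline transporter, was measured at 4.63 and 5.75 TPM from 1220 and 1603 counts. Slc6a4 (ENSMUSG00000020838, chr11:76998603-77032340, plus strand), the serotonin transporter, was at 3.05 TPM in both libraries. Slc6a2 (ENSMUSG00000055368, chr8:92960079-93001667, plus strand), the noradrenaline transporter, was at 1.29 and 1.87 TPM. These 3 ranges did not overlap. Within the noradrenergic pair, Dbh exceeded Slc6a2 3.00-fold and 2.13-fold, and within the serotonergic pair Tph2 exceeded Slc6a4 1.48-fold and 1.40-fold.

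Ache (ENSMUSG00000023328, mm10 chr5:137287519-137294466, plus strand) was measured at 101.5 and 104.5 TPM from 11955 and 12938 counts. It held 66.9% and 65.4% of all counts assigned to the 10 genes. Ache exceeded the enzyme that makes its substrate, Chat, 27.1-fold and 22.3-fold. The next gene in order, Slc18a3, lay 12.3-fold below it on average.

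The order of the remaining levels was only partly separated by the spread between libraries. From the top it ran Ache, Slc18a3, Th, Slc5a7, Tph2, Chat, Dbh, Slc18a2, Slc6a4 and Slc6a2. Neighbours whose 2 libraries overlapped were Slc18a3 and Th, Tph2 and Chat, and Chat and Dbh. The gap from Slc18a2 to Slc6a4 was 1.07-fold, with values that did not overlap but lay close together.

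None of the 10 genes differed 2-fold or more between the 2 libraries, against 0.637% of the 15543 genes with at least 100 counts over both. Ratios were taken on edgeR's scaled log2 counts per unit depth (CPM) with a prior count of 2, and no test was possible. The furthest apart was Slc6a2, at a log2 ratio of replicate 2 over replicate 1 of 0.59, with a 95% counting interval (Clopper-Pearson) of 0.41 to 0.78. Of the 15543 genes, 2.63% were at least as far apart. The 3 genes of acetylcholine synthesis and transport were each higher in replicate 2, Chat by 0.39 (0.23 to 0.56), Slc5a7 by 0.38 (0.27 to 0.49) and Slc18a3 by 0.31 (0.19 to 0.44). Th was lower in replicate 2, at -0.29 (-0.44 to -0.13), and Ache differed by 0.10 (0.07 to 0.14). For Dbh, Tph2, Slc6a4 and Slc18a2 the counting interval included 0. These intervals cover counting error only. A typical gene differed by 0.09 on this scale (the median over those 15543 genes, regardless of sign), and 95% of them stayed within 0.46.

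**Figure D2:**
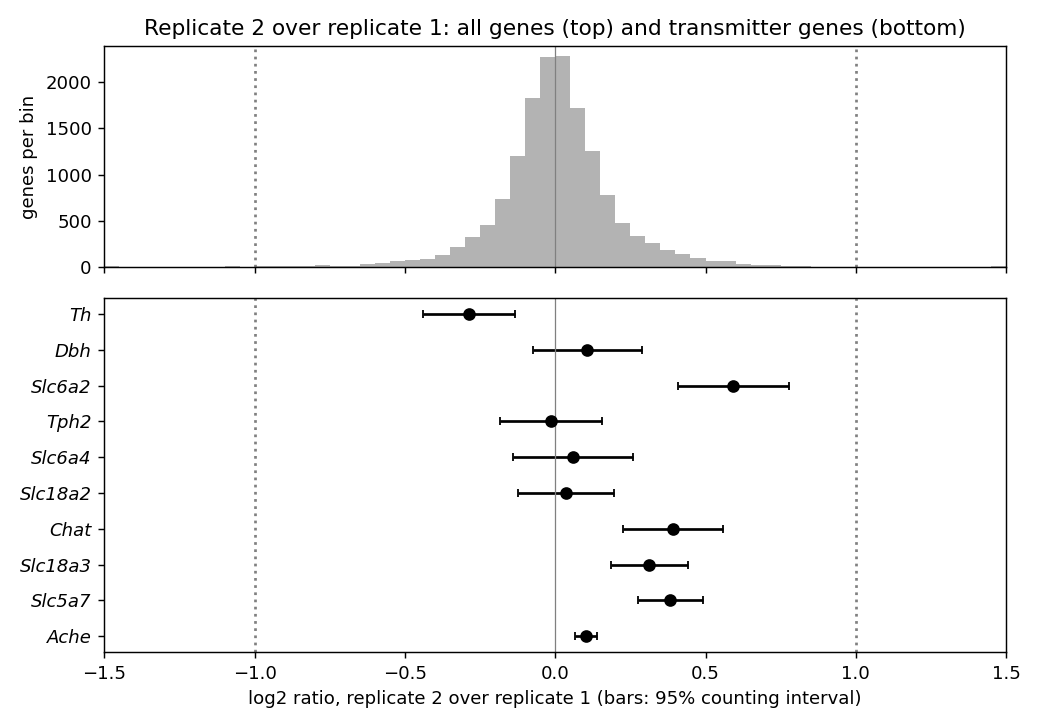
Top, the distribution over 15543 genes of the log2 ratio of replicate 2 over replicate 1, with values beyond 1.5 drawn in the end bins; bottom, the same ratio for each transmitter gene with its 95% counting interval. All 10 lie inside the dotted 2-fold lines, with Slc6a2, Chat, Slc5a7 and Slc18a3 on the right and Th on the left.

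Markers of other cell types also differed between the libraries. Of the 7 markers listed for cholinergic motor and brainstem neurons, which include 3 of the genes described here, 6 were higher in replicate 2 and Mnx1 was level at 0.02 TPM. The summed level of the 7 markers was 33.7 TPM in replicate 1 and 43.5 TPM in replicate 2. Both this sum and the count of 6 include the 3 genes, whose own ratios are given above. The 2 others with the clearest signal, Prph, an intermediate filament of neurons with peripheral or cranial axons, and Slc10a4, a vesicular protein of cholinergic and monoaminergic neurons, were at 14.3 and 18.8 TPM and at 2.66 and 3.69 TPM in replicates 1 and 2. Isl1 was at 0.65 and 1.49 TPM, from 63 and 74 counts. All 4 Purkinje markers and all 3 granule neuron markers went the other way, from a sum of 2386 to 1979 TPM and from 951.5 to 760.9 TPM. Choroid plexus markers summed to 2116 TPM in replicate 1 and 774 TPM in replicate 2, and red cell markers to 414 and 884 TPM. Unipolar brush cell markers (3 of 4 at 1 TPM or more) summed to 415 and 396 TPM, and Golgi cell markers (3 of 3 at 1 TPM or more) to 63.8 and 74.0 TPM. Of the Golgi markers, Slc6a5 was higher in replicate 2, at 32.3 and 45.1 TPM, while Lgi2, at 16.27 and 16.20 TPM, and Grm2, at 15.3 and 12.7 TPM, were not. The part of any of these in the differences of Chat, Slc18a3, Slc5a7, Slc6a2 and Th was not tested.

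Markers of the neuron types for which these genes are commonly used as markers were unequal in level. Bulk tissue does not show which cells held the transcripts. For noradrenergic cell bodies, 5 of 6 markers reached 1 TPM, of which Dbh and Slc6a2 are genes described above, so that 3 of the 4 others did so, and Phox2a, a homeobox factor of these neurons, was at 0.47 and 0.33 TPM. For serotonergic cell bodies, 3 of 6 did so, of which Tph2 and Slc6a4 are described above. Of the 4 others Gata2 did so, at 2.62 and 2.72 TPM, and Fev, the factor that defines these neurons, was at 0.31 and 0.71 TPM from 16 and 23 counts. For midbrain dopamine neurons only Th and Nr4a2 reached 1 TPM. The dopamine transporter Slc6a3 had 3 and 6 counts, Pitx3 6 and 5, Foxa1 0 and 3, and Foxa2 none. Mast cells also store monoamines, and apart from Hdc at 4.59 and 4.17 TPM their markers had at most 4 counts each. Platelets take up serotonin, and their markers summed to 4.61 and 4.63 TPM. The tissue itself matched its label, with Pcp2 of Purkinje neurons at 1585 and 1349 TPM and Gabra6 of granule neurons at 336 and 269 TPM.

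Other genes of the same pathways covered a wide range. Of 13 further synthesis and cofactor enzymes, 9 reached 1 TPM in both libraries. Qdpr, which regenerates the tetrahydrobiopterin cofactor of Th and Tph2, was the highest at 301 and 388 TPM. Pcbd2, Pts, Spr and Pcbd1, of the synthesis or regeneration of the same cofactor, lay between 16.4 and 25.2 TPM on average. Gch1, the enzyme at the start of cofactor synthesis, was at 1.75 TPM in both libraries. Ddc, the decarboxylase shared by dopamine and serotonin synthesis, was at 7.30 and 8.27 TPM. Pnmt, which makes adrenaline, had 13 and 9 counts, Tph1, the peripheral tryptophan hydroxylase, 4 and 2, and Asmt of melatonin synthesis none.

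Of 8 other carriers, 3 reached 1 TPM. Slc29a4, the low-affinity plasma membrane monoamine transporter, was at 44.4 and 35.7 TPM and so stood above Slc6a2 and Slc6a4 in both libraries. Slc18b1, the vesicular polyamine transporter, was at 11.6 and 11.5 TPM. Slc6a3 was the lowest of the list at 0.02 and 0.03 TPM.

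All 7 breakdown genes reached 1 TPM. Aldh2, an aldehyde dehydrogenase, was at 76.1 and 61.9 TPM, and Maoa, a monoamine oxidase, at 14.1 and 14.4 TPM. Its relative Maob was at 10.3 and 9.36 TPM. Bche, the second cholinesterase, was the lowest at 1.32 and 1.30 TPM, beside 101.5 and 104.5 TPM for Ache.

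All 8 anchor and choline genes reached 1 TPM. The choline kinases Chka and Chkb were at 80.5 ± 8.43 and 65.5 ± 1.88 TPM (SD, n = 2). The choline carriers Slc44a1 and Slc44a2 were at 52.3 ± 2.50 and 22.2 ± 0.841 TPM, and Pcyt1a of phosphatidylcholine synthesis was at 19.5 ± 0.573 TPM. Prima1, the membrane anchor of brain acetylcholinesterase, was at 6.97 and 8.74 TPM, and Colq, the collagen tail of the muscle form, was the lowest at 2.67 and 2.84 TPM. Of 15 transcription factors of monoamine and cholinergic neurons, 4 reached 1 TPM in both libraries and none reached 10 TPM. The highest was Tlx3 at 9.34 and 7.87 TPM, and Hand2 had no counts.

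**Figure D3:**
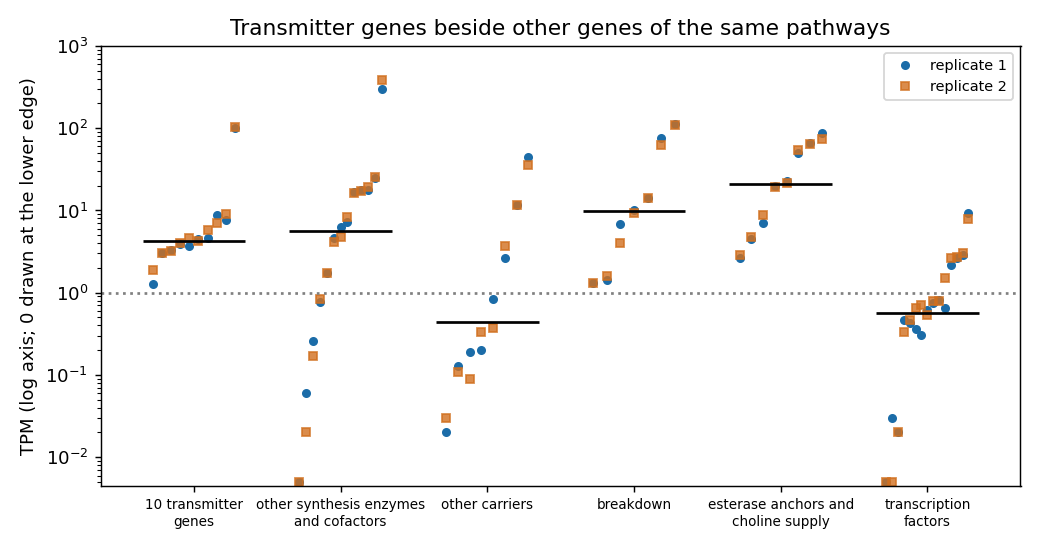
TPM (log axis) of each gene in the 10 transmitter genes and in 5 lists of related genes, with replicate 1 as circles, replicate 2 as squares and the median of the list as a line. The breakdown and the choline lists lie wholly above 1 TPM, while 4 of 15 transcription factors do so in both libraries.

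At the transcript level, 9 of the 10 genes were assigned almost wholly to a single transcript, with at least 95% of their TPM in both libraries. Chat, Slc18a2, Slc18a3 and Slc5a7 had a single transcript in the annotation used, so their share of 100% was fixed in advance. By posterior mean TPM, Dbh-201 and Slc6a4-201 stayed under 95%. The same count over all genes was not computed, so 9 of 10 cannot be read as a trait of this set. Th had 6, and all 769 and 635 counts went to Th-201. Dbh-201, Tph2-201 and Slc6a2-201 held 100%, 100% and at least 99.2%. Slc6a4-201 held 97.8% and 95.2%, and the rest went to the intron-retaining Slc6a4-204. Ache was the exception, with 60.1% and 61.8% for Ache-201, 21.4% and 22.5% for Ache-202, and 17.3% and 15.5% for Ache-208, a transcript with a retained intron.

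Ache-201 and Ache-202 differ at the start of exon 2, where acceptors lie 3 bases apart in the 5′ untranslated part, with the downstream one 22 bases ahead of the start codon. The joined ends of exons 1 and 2 are shown because the reads separate them at this site. They come from the GENCODE M21 transcripts on mm10, chr5, plus strand, with exon 2 beginning at 137290012 in Ache-201 and 137290009 in Ache-202, and the capitals mark the added bases.
Ache-201: tggccgcctcagacaccagcctgtcct
Ache-202: tggccgcctcagCAGacaccagcctgtcct

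Spliced reads in the mm9 junction table favoured the shorter form. The intron ending at the downstream acceptor (mm9 chr5:137729596-137731239) had 261 and 269 reads in the 2 mm9 replicates, and the one ending at the upstream acceptor (chr5:137729596-137731236) had 85 and 106. The downstream acceptor thus took 75.4% (Wilson 95% interval 70.6 to 79.7) and 71.7% (67.0 to 76.1) of these reads. The mm9 replicates are numbered 1 and 2, but no source used here says which library each is. The resulting ratio of 3.07 and 2.54 was close to the ratio of transcript TPM in the mm10 tables, 2.81 and 2.75. The mm9 transcript table gave 1.13 and 0.971 for the same pair, so this table split Ache nearly evenly where the junction reads did not.

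**Figure D4:**
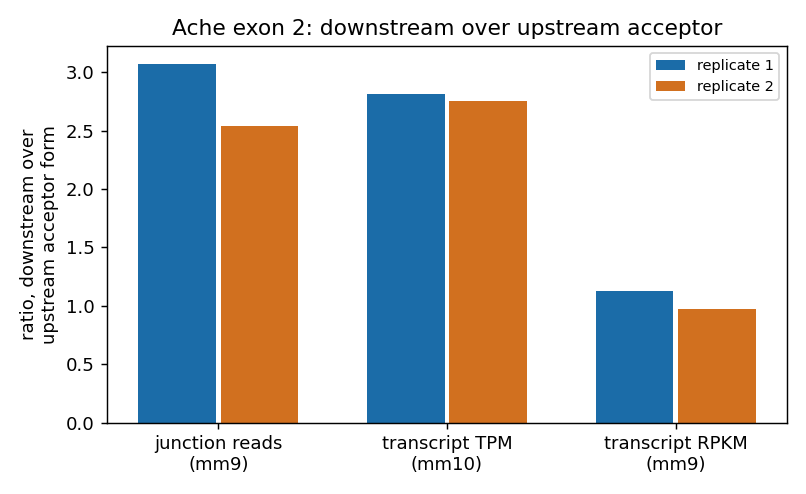
Ratio of the Ache-201 form over the Ache-202 form (bars from 0) by 3 measures, for replicates 1 and 2 of each file set. Junction reads and mm10 TPM lie between 2.54 and 3.07, and mm9 transcript RPKM at 1.13 and 0.971.

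Further along Ache, junction reads were 1060 over intron 2, 2314 over intron 3 and 1426 over intron 4, the last. Of the reads that left the donor of intron 4, 1426 of 1427 (99.93%, Wilson 95% interval 99.60 to 99.99) reached its annotated acceptor. That acceptor leads to the exon of the synaptic, tailed form of the enzyme. The share holds only reads spliced from that donor, so transcripts that keep intron 4 cannot appear in it. Reads over intron 4 were 61.6% of those over intron 3, and the share of the tailed form among Ache transcripts was not measured. The authors' contigs, stretches of continuous coverage on one strand, ran over Ache as 1 block with 100% of both exon and intron bases covered. That block (mm9 chr5:137728209-137738197) ran beyond the annotated exons at both ends and carried a single signal of 13.3. It therefore does not show how much of any 1 intron was kept. A further 9 junctions with 2 or more reads reached exon 2, but 93.8% (721 of 769) of reads reaching it came from the annotated end of exon 1.

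Splicing of the 9 genes in the mm9 set mostly followed the annotation. All annotated introns of the leading transcripts of the 9 matched genes had reads in both replicates, from 2 reads over intron 9 of Slc6a2 to 2314 over intron 3 of Ache. Junctions outside Ensembl 65 with at least 2 reads made up between 0% of junction reads for Slc6a4 and 2.88% for Slc6a2. Neither share was computed over all genes, so both describe the 9 genes without setting them apart from others. Th had 53 to 270 reads an intron, Dbh 32 to 103, Tph2 37 to 116, Slc6a4 10 to 78, Slc18a2 27 to 88, and Slc6a2 2 to 31.

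**Figure D5:**
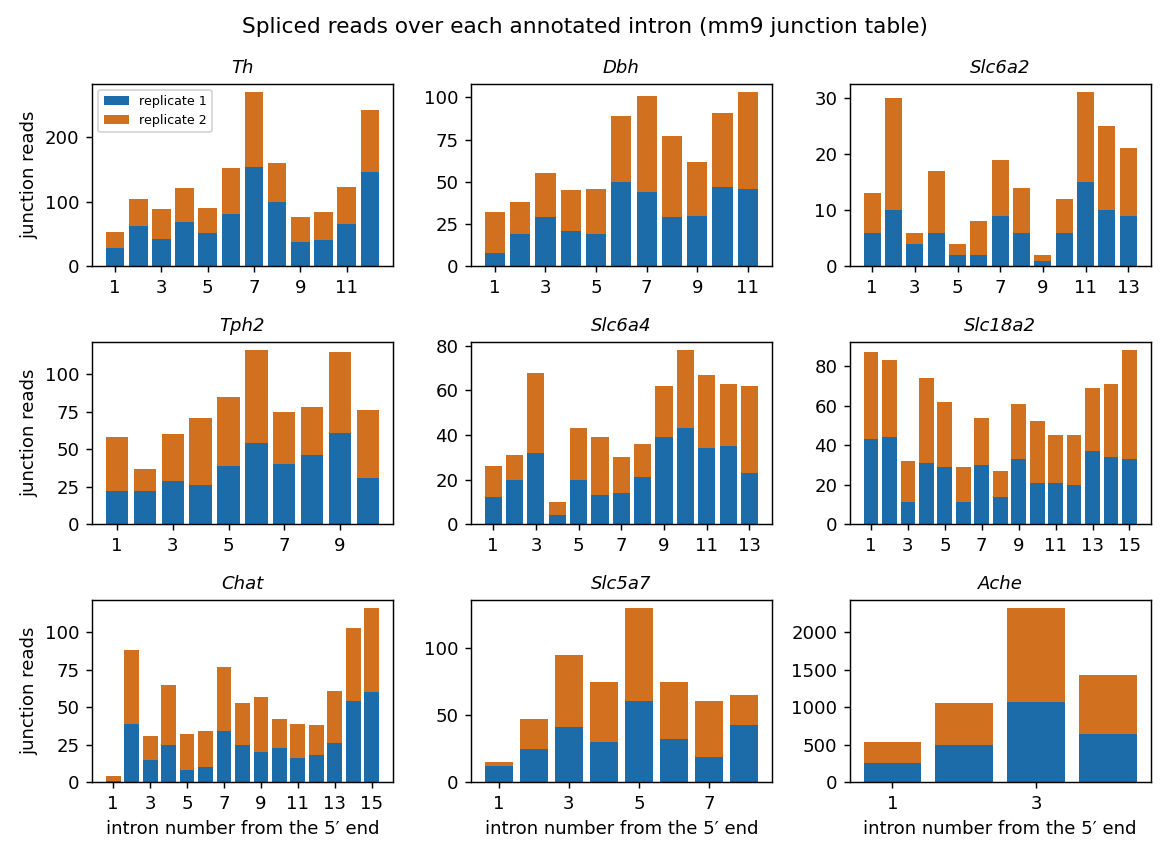
Spliced reads over each annotated intron of the leading mm9 transcript, numbered from the 5′ end, stacked by replicate, for the 9 genes in that set. The first bar is the shortest of its gene in 5 of the 9, Th (53 reads), Dbh (32), Chat (4), Slc5a7 (15) and Ache (530). How often this holds over all genes was not computed.

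The splice junction of the first intron had few reads in Chat and Slc5a7. Chat had 4 reads over intron 1 (1 and 3 in the replicates), against 31 to 116 over introns 2 to 15, a value of 0.0727 of their median. Slc5a7 had 15 reads (12 and 3), against 47 to 130 over the others, 0.200 of their median. The value for Slc5a7 was 0.375 in replicate 1 and 0.0698 in replicate 2, so replicate 1 alone was not under 0.25, while Chat was at 0.0417 and 0.0952. Among the 7 genes with at least 5 introns and a median of 20 or more reads, these 2 were at or under 0.25 on reads of both replicates, and so were 16.2% of the 8177 genes of the annotation that met the same conditions. A weak first junction is therefore common in these files. Slc18a2 went the other way, with 87 reads over intron 1, 1.51 of the median of the others. The last intron had the most reads of its gene in 3 of the 7, against 24.8% of the same 8177 genes.

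Chat and Slc18a3 share one locus, in which the single exon of Slc18a3 (mm10 chr14:32462438-32464850, minus strand) lies inside the first intron of Chat on the same strand. Strand therefore does not separate Slc18a3 reads from unspliced Chat reads. The RefSeq start of Slc18a3 lies 1059 bases downstream of that of Chat. The 250 bases ahead of each start are shown, from RefSeq on GRCm38.p6, chr14, minus strand, because the 2 annotated starts lie this close together on one strand. Capitals mark the GC-box core GGGCGG, searched on both strands over the 300-base windows, which 35.7% of 32851 RefSeq promoter windows hold.
Slc18a3, chr14:32464851-32465100: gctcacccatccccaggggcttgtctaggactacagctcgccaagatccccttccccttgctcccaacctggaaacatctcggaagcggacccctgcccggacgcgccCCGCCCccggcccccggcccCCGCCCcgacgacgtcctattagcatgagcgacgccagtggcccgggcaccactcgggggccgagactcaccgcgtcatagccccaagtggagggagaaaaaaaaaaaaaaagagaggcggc
Chat, chr14:32465910-32466159: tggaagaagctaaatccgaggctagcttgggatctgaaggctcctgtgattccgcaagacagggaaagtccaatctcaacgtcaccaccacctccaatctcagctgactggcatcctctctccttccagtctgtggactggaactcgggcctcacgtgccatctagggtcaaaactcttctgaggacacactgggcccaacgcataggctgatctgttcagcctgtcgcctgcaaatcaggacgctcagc
The core occurs 2 times ahead of Slc18a3 and 0 times ahead of Chat in these letters, where 66.0% and 54.8% of bases were G or C.

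In the mm9 contigs this locus was covered most strongly within the first intron of Chat. A contig of 3610 bases covered 3370 of the 4893 bases of that intron, together with exon 1, at a coverage signal of 2.60. The 17 contigs inside introns 2 to 15 had signals of 0.028 to 0.182, and the 15 over exons 2 to 16 had 0.24 to 2.24. The contig over exon 2 ran 68 bases further upstream than the annotated exon, and the last one ran 828 bases past the annotated 3′ end. The junction that would join exon 1 to exon 2 reads as follows in Chat-201 (GENCODE M21, capitals for exon 2) and is the one with 4 reads.
Chat-201: gcttccacgccacttTCAGTCAGTCGGGGC

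In Slc18a2, 1 junction outside the annotation stood out. It joined a donor 131 bases past the end of exon 11 to the annotated acceptor of exon 13 (mm9 chr19:59358799-59359748) and so left out the 52-base exon 12. It had 7 and 11 reads, against 20 and 25 for the annotated intron ending at the same acceptor. Its share was 28.6% (18 of 63 reads, Wilson 95% interval 18.9 to 40.7). In Slc5a7, a donor outside the annotation joined to exon 2 (chr17:54436517-54437629) had 1 and 5 reads beside 12 and 3 for the annotated one, or 28.6% of 21 reads (13.8 to 49.96). The replicates differed in which first exon was seen more often, on counts too small to compare.

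Promoter windows were found in RefSeq for 9 of the 10 genes. The cyclic AMP response element TGACGTCA, read on both strands, occurred in the windows of Th and Slc18a2, 2 of 9, and in 1.79% of all 32851 windows. Both are genes of monoamine synthesis or storage, and the elements are shown with their flanks, in capitals, in the direction of transcription. The first lies at chr7:142900022-142900051, with the first base of the element 45 bases ahead of the RefSeq start, and the second at chr19:59260863-59260892, with its first base 4 bases ahead, so that this element spans the RefSeq start.
Th: cagaggggcttTGACGTCAgcctggccttt
Slc18a2: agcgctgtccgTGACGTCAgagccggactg
A match in letters is a description of the window and says nothing of binding. CACGTG occurred in the windows of Ache and Chat and in 7.15% of all windows, and TATAAA in those of Tph2 and Slc5a7 and in 13.6%.

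In the mm9 gene table, levels were on a lower scale. Values in RPKM, reads scaled to transcript length and depth, were 11.1 and 12.2 for Ache, 0.861 and 0.745 for Th, 0.566 and 0.756 for Slc5a7, 0.496 and 0.538 for Tph2, 0.365 and 0.4998 for Chat, and 0.165 and 0.243 for Slc6a2. Over the 9 genes the mm9 RPKM was 0.174 of the mm10 FPKM at the median, with a range of 0.144 to 0.198, beside 0.180 for 12892 protein-coding genes. The lower scale was thus shared with other genes. Ache was again the highest and Slc6a2 the lowest. The RPKM of an exon equalled the summed RPKM of its transcripts within a tolerance of 0.001 RPKM plus 0.001 of the value for all 351001 exons of the table, so the exon table held no measurement of single exons.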

How the data were processed

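RNA of 2 cerebellum libraries was quantified by the authors on mm10, per the file headers and names, into expected counts, TPM, FPKM, posterior mean TPM and percent of each transcript within its gene. No source used here names the quantifier or the aligner. A second deposited set on mm9 holds Ensembl 65 RPKM, splice junction read counts for replicates 1 and 2, and contigs with a coverage signal proportional to aligned bases per base. The last contig on mm9 chromosome 19 ended at base 59128461, ahead of Slc18a2, so the contigs gave no coverage for that gene. Coordinates of the 2 builds were never mixed.

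Gene names, types and positions came from GENCODE M21 (42462 of 43346 identifiers matched) and promoter windows from RefSeq. Means, SDs and shares were computed with Python 3.11.15 and pandas 2.3.3, and Wilson intervals at 95% with scipy 1.17.1. Between-library ratios used edgeR 4.0.16 in R 4.3.3 (TMM factors, prior count 2, counts rounded, at least 100 counts over both libraries), checked on simulated counts. With 1 group of 2 libraries no test was run. No column of unmatched samples was met.

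All 10 genes are named, together with every gene of the pathway lists at 10 TPM or more, the lowest of each list, and genes a sentence turns on, except 2 list genes whose values are not reported here. Members and lists were chosen with earlier results of these data known. Alternatives were other units and annotations, other TPM, count and read minimums, other scalings and prior counts, other transcript rankings, and leaving out each library.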

Additional observations from a re-analysis of the deposited data

How the results depend on the processing

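All 10 genes kept Ache as the highest and Slc6a2 as the lowest under each unit and with either library alone (the mm9 table holds 9 of them). The median level, 4.30 TPM, became 2.80 in FPKM, 4.84 as posterior mean TPM, 4.56 TPM when rescaled to annotated genes, 5.11 TPM when rescaled to protein-coding genes and 0.432 in mm9 RPKM, and ranged from 4.19 to 4.48 TPM with 1 library left out. The largest move of a single gene between TPM and posterior mean TPM was 1.32-fold, for Dbh, whose Dbh-202 took 23.9% and 25.3% of the posterior mean with no expected counts. By posterior mean, Dbh-201 held 76.07% and 74.74% and Slc6a4-201 held 85.36% and 84.05%, so neither reached 95% by that estimate. The count at the detection threshold was 10 at 0.5 TPM, 9 at 2 TPM, 3 at 5 TPM, 9 at 1 FPKM and 1 at 1 RPKM in mm9. Of the 96 distinct genes in the pathway and marker lists, 64 reached 1 TPM and 39 reached 5 TPM. The marker lists include all of the 10 genes except Ache and Slc18a2. No gene of the 10 passed 2-fold between libraries under any scaling, prior count or minimum tried. Among all genes that met the minimum count in use, the share that did so ranged from 0.238% with TPM + 1 to 3.77% with no minimum count. The leading transcript of all 10 was the same when mm10 transcripts were ranked by TPM, expected counts or posterior mean TPM, and with either library alone; in replicate 2 of the mm9 transcript table, which was not among these rankings, Ache-202 stood above Ache-201 at 4.31 and 4.18 RPKM. Every annotated intron passed a minimum of 1 or 2 reads, 98 passed 5 and 96 passed 10. With a single mm9 replicate they numbered 99 to 100. Junctions outside the annotation fell from 61 at 2 reads to 2 at 10. Depth limits the junction shares of Slc5a7 and Slc18a2 and the first intron of Chat. No paired analysis was possible because there is 1 group.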
